A study of Mus musculus with 6 samples.

Results

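Lipocalin 2 and the class A scavenger receptor Scara5 were followed here with the genes that bring iron into cells, store it, release it and free it from heme. The set held 10 of the 49548 genes of the table, picked by gene name. Lcn2 and Scara5 were selected on their higher values under amisulpride in this same comparison, so for them the values are a description and no p-value is given. The other members, Slc22a17, Tfrc, Slc11a2, Fth1, Ftl1, Ncoa4, Slc40a1 and Hmox1, were added for their roles, but with earlier results of these data known.

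Synovial fibroblasts (SFs), the connective tissue cells of the joint lining, came from ankle joints of hTNFtg mice, which carry a human TNF transgene and develop arthritis. The mice were 8 weeks old and of CBA C57BL/6J background, the cells were grown in culture, and CD45+ leukocytes were removed at the first passage. One group of 3 libraries had no treatment by its labels (the methods speak of vehicle), and the other 3 libraries came from cells given 500 μM amisulpride, a dopamine and serotonin receptor blocker used as an antipsychotic, for 48 h. Both groups carried the transgene and no wild-type library was part of the comparison, so only an effect on TNF-exposed arthritic cells could be measured. The methods call the replicates biological, and whether same-numbered libraries came from the same mice was not stated.

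Iron enters most cells as transferrin-bound iron through the transferrin receptor Tfrc and crosses the endosomal membrane through Slc11a2. It is stored in ferritin, a shell of heavy (Fth1) and light (Ftl1) chains, is released again when Ncoa4 carries ferritin to the lysosome, and leaves the cell through ferroportin, Slc40a1. Lipocalin 2 is a secreted protein that binds bacterial and mammalian siderophores and is known as an inflammation-induced product of neutrophils, epithelia and mesenchymal cells. Slc22a17 was described as its receptor. Scara5 binds and takes up ferritin. Hmox1 opens the heme ring and sets its iron free.

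Ferritin, transferrin receptor and ferroportin RNAs carry iron-responsive elements (IREs), hairpins that bind the iron regulatory proteins Aco1 and Ireb2 when iron is scarce. In the 5′ UTR of a ferritin RNA this binding blocks translation, and in the 3′ UTR of Tfrc it slows RNA decay. The elements are shown because they tie the RNA level of Tfrc, but not that of the ferritins, to the iron regulatory proteins. A search of GENCODE M21 transcripts (GRCm38) for a bulged c, a stem of 5 base pairs and a CAGTGN loop whose last base is not G found 17-base matches in 4 of the 10 members, against 222 of 21877 protein-coding genes (1.01%). The matches run 5′ to 3′ and capitals mark the loop.

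Fth1, 5′ UTR: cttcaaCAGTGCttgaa
Ftl1, 5′ UTR: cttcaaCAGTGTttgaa
Slc40a1, 5′ UTR: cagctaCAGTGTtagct
Tfrc, 3′ UTR, most 5′: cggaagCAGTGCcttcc
Tfrc, 3′ UTR, next: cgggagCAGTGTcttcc
Tfrc, 3′ UTR, next: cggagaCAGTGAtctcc
Tfrc, 3′ UTR, most 3′: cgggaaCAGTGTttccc

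The Fth1 element lies at chr19:9982738-9982754 on the plus strand, that of Ftl1 at chr7:45459785-45459801 on the minus strand and that of Slc40a1 at chr1:45925471-45925487 on the minus strand. In Tfrc, on the plus strand, they lie in order at chr16:32631225-32631241, chr16:32631604-32631620, chr16:32631669-32631685 and chr16:32631716-32631732. The stems and loops of Fth1 and Ftl1 differ only in the last loop base. Slc11a2, which is known for an element in some of its transcripts, had no match to this strict pattern.

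The promoter of Lcn2 is shown because its gene had the highest change of the set. These are the 250 bases before the RefSeq start site (GRCm38.p6, chr2:32387740-32387989, minus strand), and capitals mark a match to TTGCNNAA, searched on both strands as a motif of C/EBP factors.

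Lcn2 promoter: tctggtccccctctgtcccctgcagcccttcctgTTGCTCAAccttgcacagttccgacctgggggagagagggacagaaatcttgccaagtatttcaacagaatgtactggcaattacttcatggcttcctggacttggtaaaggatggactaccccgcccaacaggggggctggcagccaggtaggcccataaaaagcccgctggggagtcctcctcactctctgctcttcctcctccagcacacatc

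The window lies inside the span that the table gives for Lcn2, whose annotated start is further 5′. The match runs from -216 to -209 relative to the start, and 9.56% of 32851 RefSeq promoters of the same length hold one. C/EBP factors are known activators of Lcn2. A promoter was found for 6 of the 10 members. Besides Lcn2, Fth1 alone held TTGCNNAA, from -129 to -122 and, on the other strand, from -58 to -51. The longer C/EBP motif (in 0.0578% of promoters), the NF-kB motif (3.9%), the STAT motif TTCNNNGAA (7.02%), the antioxidant response element TGACNNNGC (10.2%), TATAAA (12.4%) and CCAAT (33.8%) were searched as well and had no match in the Lcn2 window. A match describes letters in a window and is not evidence of binding.

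Values are the authors' normalised counts. They were read here as reads per gene scaled by 1 factor per library and rounded, which 94.4% to 100% of the values above 0 in a library allowed. The read numbers below rest on this reading. Libraries held approximately 2.52 to 4.71 M reads, and 3 reads, the floor set here for low values, were worth 2.51 to 5.37 normalised counts. The read depth of untreated replicate 1 is uncertain, and amisulpride replicate 3 was the shallowest library and stood apart, with a correlation of levels of 0.902 and 0.908 with the other treated libraries against 0.946 between those. All 10 fibroblast markers were measured, and their summed values ran from 44588 to 59166 in untreated and from 51317 to 90819 in treated libraries. Most of the sum was Col1a1, Col1a2, Col3a1 and Vim. Of the markers, Col1a1, Col1a2 and Col3a1 were higher in each replicate number and Pdpn, Lum and Prg4 lower, with the groups apart for Prg4 only. Fold changes are amisulpride over untreated on log2(normalised count + 1), from limma over the 12614 genes that reached 10 in at least 3 libraries, with the standard error (SE) and Benjamini-Hochberg adjusted p. The study thresholds ask for a log2 change of 1 or more in either direction together with an unadjusted p under 0.05. With bulk RNA, fewer cells of a type and less RNA per cell cannot be told apart.

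Lcn2 and Scara5 were higher in every amisulpride library than in any untreated one. Lcn2 (ENSMUSG00000026822, chr2:32384633-32388252, minus strand, mm10) stood at 35, 16 and 9 normalised counts in untreated replicates 1, 2 and 3 and at 231, 361 and 159 in amisulpride replicates 1, 2 and 3. The lowest treated library lay well above the highest untreated one, and in both groups replicate 3 was the lowest. Means were 20 ± 13.5 and 250.3 ± 102 (SD, n = 3), and the log2 fold change was 3.70 ± 0.46 (SE). Within replicate numbers 1, 2 and 3 the log2 change was 2.69, 4.41 and 4.0. The untreated values stand for few reads, so the size of the fold rests on shallow counts in that group.

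Scara5 (ENSMUSG00000022032, chr14:65666403-65764826, plus strand) stood at 41, 22 and 16 normalised counts in the untreated and at 114, 146 and 131 in the amisulpride libraries. The untreated libraries kept the order seen for Lcn2, while the treated ones lay close together. Means were 26.3 ± 13.1 and 130.3 ± 16.0 (SD, n = 3), and the fitted difference was 2.36 ± 0.36 on the log2 scale (SE). The log2 change was 1.45, 2.68 and 2.96 within replicate numbers 1, 2 and 3, so both genes changed least in replicate 1. Leaving out each library in turn moved the log2 fold change between 2.07 and 2.72 for Scara5 and between 3.26 and 4.19 for Lcn2. Without amisulpride replicate 3, which stood apart, it was 2.35 for Scara5 and 3.99 for Lcn2.

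**Figure D1:**
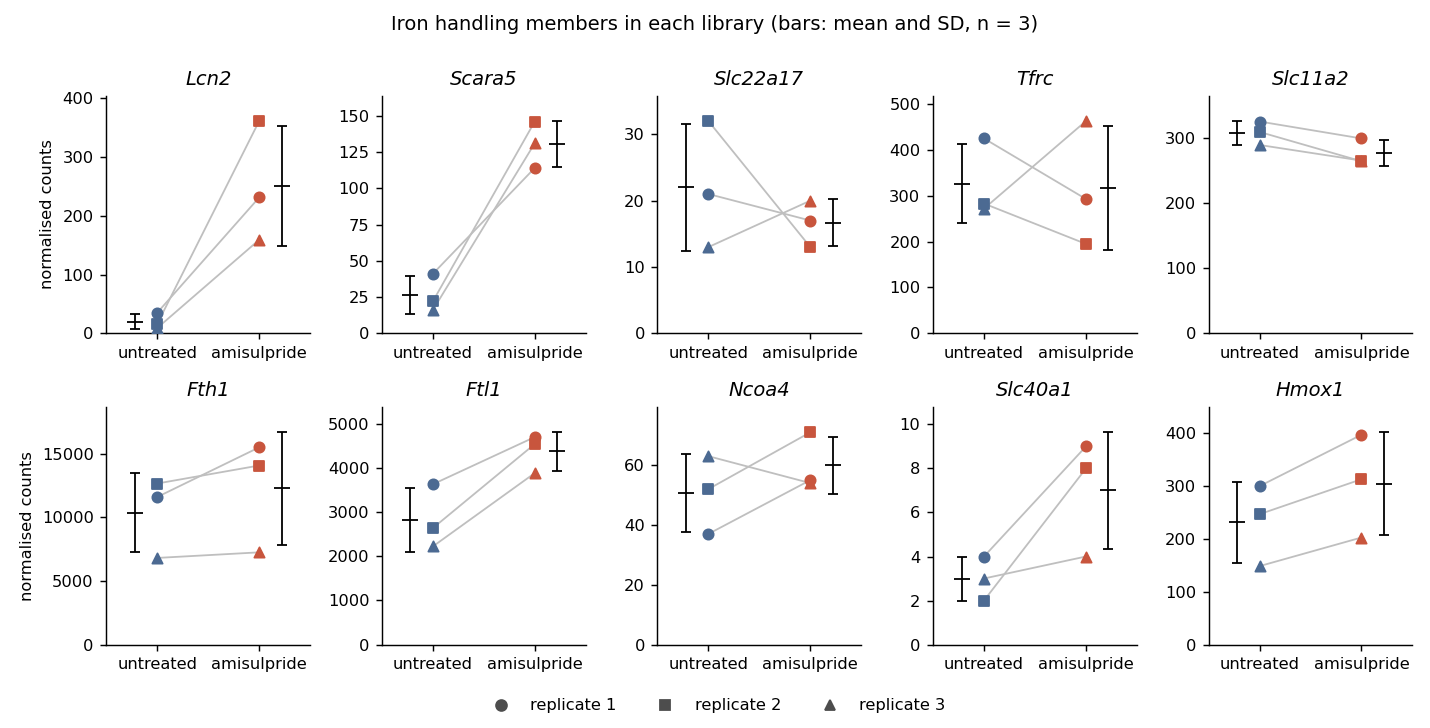
Normalised counts (linear axis from 0) of the 10 members in 3 untreated and 3 amisulpride libraries, with grey lines joining libraries of the same replicate number and black bars giving the mean and SD. The groups are apart for Lcn2 and Scara5 and, more narrowly, for Ftl1 (3628 at most against 3881 at least), while Tfrc and Slc22a17 cross.

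No difference was detected for the described receptor of lipocalin 2. Slc22a17 (ENSMUSG00000022199, chr14:54906727-54913132, minus strand) stood at 21, 32 and 13 normalised counts without and 17, 13 and 20 with amisulpride. The groups overlapped, and replicate 3 moved against the other two. Means were 22 ± 9.54 and 16.7 ± 3.51 (SD, n = 3), and the log2 fold change was -0.31 ± 0.45 (SE, adjusted p = 0.838, limma), with a 95% interval from -1.31 to 0.68. The interval leaves room for more than a halving as well as for a rise.

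Iron import through transferrin showed no common direction. Tfrc (ENSMUSG00000022797, chr16:32608920-32632794, plus strand) stood at 425, 283 and 272 normalised counts in untreated and at 293, 195 and 463 in amisulpride libraries. Treated replicate 3 was the highest of all 6 libraries and treated replicate 2 the lowest. Means were 326.7 ± 85.3 and 317 ± 136 (SD, n = 3), and the log2 fold change was -0.10 ± 0.33 (SE, 95% interval -0.83 to 0.62, adjusted p = 0.934, limma). Its sign turned when untreated replicate 1 (0.10) or amisulpride replicate 2 (0.20) was left out.

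Slc11a2 (ENSMUSG00000023030, chr15:100387898-100425072, minus strand), the proton-coupled metal transporter, stood at 325, 309 and 289 without and 299, 264 and 265 with amisulpride. It was the least variable member, and the treated library was the lower one in all 3 replicate numbers, although the groups overlapped at 289 and 299. The log2 fold change was -0.16 ± 0.23 (SE, 95% interval -0.65 to 0.34, adjusted p = 0.838, limma). An antisense gene, Gm5475, overlaps it and held at most 1 normalised count.

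The ferritin chains had higher means under amisulpride, with the groups apart only for the reads counted on the light chain gene itself. Ftl1 (ENSMUSG00000050708, chr7:45457944-45459884, minus strand) stood at 3628, 2635 and 2220 normalised counts in untreated and at 4697, 4539 and 3881 in amisulpride libraries. Every treated library lay above every untreated one, and the order of the replicate numbers was the same in both groups. Means were 2828 ± 724 and 4372 ± 433 (SD, n = 3), a difference of 0.65 ± 0.27 on the log2 scale (SE, 95% interval 0.06 to 1.25). The unadjusted p was 0.0337 and the adjusted p 0.405 (limma), so the difference did not pass the test over all genes. Leaving out single libraries moved it between 0.49, when untreated replicate 3 was left out, and 0.85, when untreated replicate 1 was, and under the alternatives the adjusted p ran from 0.147 to 0.779. With amisulpride replicate 3 left out the log2 difference was 0.74.

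Fth1 (ENSMUSG00000024661, chr19:9982703-9985092, plus strand), the chain with ferroxidase activity, stood at 11602, 12662 and 6809 normalised counts without and 15506, 14078 and 7249 with amisulpride. Replicate 3 was by far the lowest of both groups, and the spread between replicate numbers exceeded the difference between the groups. Means were 10358 ± 3119 and 12278 ± 4413 (SD, n = 3), and the log2 fold change was 0.22 ± 0.37 (SE, 95% interval -0.60 to 1.04, adjusted p = 0.862, limma). Without untreated replicate 3 it was -0.06.

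The light chain has closely similar copies in the genome, so part of its reads could have been counted elsewhere. Ftl2-ps stood at 4137, 1777 and 2165 normalised counts in untreated and at 4204, 3152 and 2586 in amisulpride libraries, in the range of Ftl1. It shares 68.8% of its 30-base words with Ftl1, and Ftl1-ps1 shares 83.7%. Ftl1-ps1 stood at 191, 140 and 122 against 206, 197 and 156, and Ftl1-ps2, which shares 50.2%, at 50, 23 and 25 against 48, 55 and 54. The groups overlapped for each of these copies, whereas those of Ftl1 did not. With the reads of the named copies added, an alternative chosen after seeing the data, the log2 fold change of Ftl1 was 0.52 (adjusted p = 0.586, limma). In that sum the groups overlapped, because untreated replicate 1 lay above amisulpride replicates 2 and 3.

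The heavy chain copies were sparse and shared few 30-base words with Fth1, 3.95% for Fth-ps3 and 2.67% for Fth-ps2. Fth-ps3 stood at 11, 14 and 9 against 13, 28 and 18 normalised counts and Fth-ps2 at 9, 8 and 2 against 11, 11 and 4, and adding them left Fth1 at 0.22. The copies named Fthl17, 9 in all, were at 0 in every library. A small gene annotated as a miRNA, Gm22133, lies within Ftl1 on the same strand over 109 bases and was listed at 1849, 1331 and 1121 against 2373, 2293 and 1963. Reads of Ftl1 and Gm22133 cannot be told apart there.

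**Figure D2:**
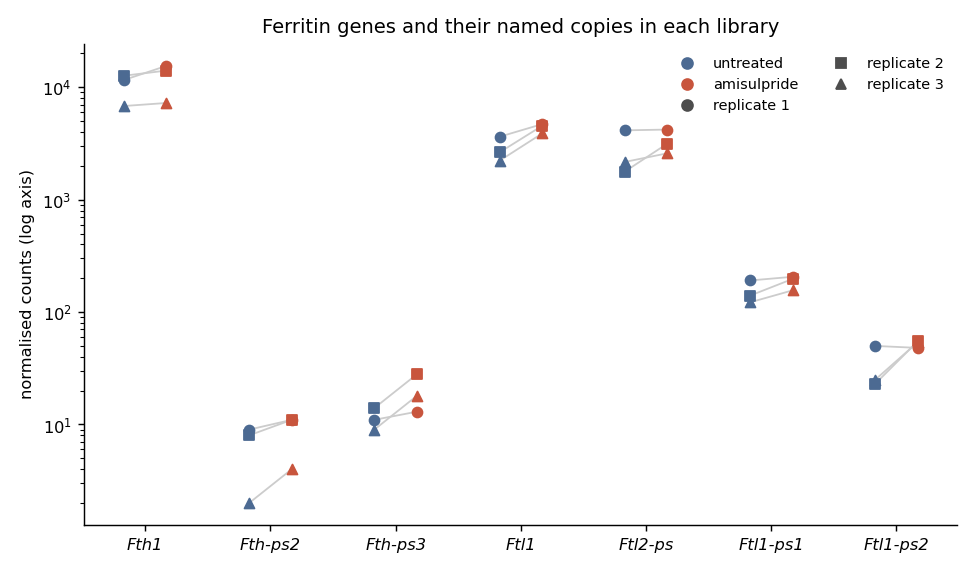
Normalised counts (log axis) of the ferritin genes and their named copies in each library, blue for untreated and red for amisulpride, with lines joining the same replicate number. Ftl2-ps lies in the range of Ftl1, and the heavy chain copies lie at 28 or below.

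Ncoa4 (ENSMUSG00000056234, chr14:32159865-32179855, plus strand), the receptor that delivers ferritin to lysosomal breakdown, stood at 37, 52 and 63 without and 55, 71 and 54 with amisulpride. The groups overlapped and replicate 3 moved against the other two. The log2 fold change was 0.26 ± 0.31 (SE, 95% interval -0.43 to 0.95, adjusted p = 0.802, limma).

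Ferroportin, the iron exporter, had few reads. Slc40a1 (ENSMUSG00000025993, chr1:45908068-45926523, minus strand) stood at 4, 2 and 3 normalised counts in untreated and at 9, 8 and 4 in amisulpride libraries. The worth of 3 reads was 2.98, 3.17 and 2.51 without and 2.69, 4.01 and 5.37 with amisulpride, so treated replicates 1 and 2 lay clearly above it and the other libraries near it or below. The gene did not pass the filter on low values, was not tested and is given no fold.

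Hmox1 (ENSMUSG00000005413, chr8:75093621-75100589, plus strand) stood at 299, 246 and 148 normalised counts in untreated and at 396, 312 and 202 in amisulpride libraries. The order of the replicate numbers was the same in both groups, and the treated library was the higher one in each number, by 0.40, 0.34 and 0.45 on the log2 scale. The groups overlapped nonetheless, with replicate 3 low in both. Means were 231 ± 76.6 and 303.3 ± 97.3 (SD, n = 3), and the log2 fold change was 0.40 ± 0.33 (SE, 95% interval -0.33 to 1.13, adjusted p = 0.712, limma). Leaving out single libraries moved it between 0.11, when untreated replicate 3 was left out, and 0.66, when amisulpride replicate 3 was, and under the alternatives the adjusted p ran from 0.340 to 0.959.

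Counted over the set, 9 of the 10 members were tested. An adjusted p under 0.05 was reached by 2, Lcn2 and Scara5, against 0.285% of all genes tested, and since these members were chosen for it, nothing is read from this count or from the others that include them. It fell to 1 without untreated replicate 1 or amisulpride replicate 1, and to 0 without untreated replicate 2, untreated replicate 3 or amisulpride replicate 2. Over all genes the count fell as well, from 36 to 1, 0 and 0 without untreated replicates 1, 2 and 3. Without amisulpride replicates 1 and 2 it was 17 and 6. An unadjusted p under 0.05 was reached by 3 members, with Ftl1 as the third, against 10.9% of all genes. The study thresholds were passed by the same 2 in the higher direction, where 2.69% of genes passed, and by 0 in the lower direction, where 3.01% did. The groups were apart with higher treated values for 3 members (7.8% of all genes) and with lower ones for 0 (8.66%). The treated library was higher in all 3 replicate numbers for 5 tested members, Lcn2, Scara5, Fth1, Ftl1 and Hmox1, against 16.9% of genes. The median log2 fold change over the 9 tested members was 0.26, beside 0.00 over all genes tested. Among the 7 tested members other than Lcn2 and Scara5, 0 reached the adjusted and 1 the unadjusted p, the groups were apart for 1, the treated library was higher in all 3 replicate numbers for 3, and the median was 0.22.

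**Figure D3:**
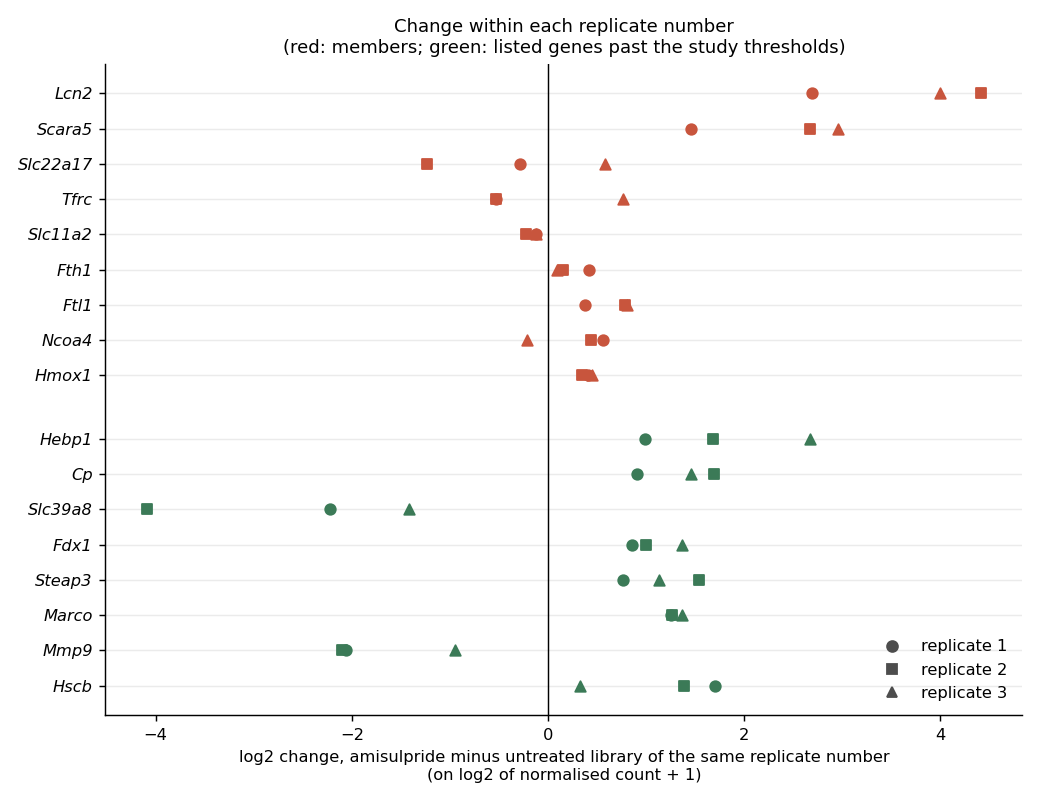
Log2 change of normalised count + 1 from the untreated to the amisulpride library of the same replicate number, for the 9 tested members (red) and for the 8 listed genes past the study thresholds (green). Lcn2 and Scara5 lie apart from the other members in every number, and the points of Tfrc, Slc22a17 and Ncoa4 fall on both sides of 0.

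The other genes of iron and heme handling were taken from 7 lists written by role, with 61 of 74 tested. None reached an adjusted p under 0.05 in limma, where 0.285% of all genes tested did. An unadjusted p under 0.05 was found for 10 (9 higher and 1 lower), beside 10.9% of all genes. The study thresholds were passed by 5 in the higher direction (2.69% of all genes) and by 1 in the lower (3.01%). The lower one, Slc39a8, passed the filter on low values only through the untreated libraries. The groups were apart for 9 higher (7.8% of all genes) and 4 lower genes (8.66%), and the median log2 fold change was -0.07. With the replicate number as a block, 4 reached an adjusted p under 0.05, against 2.08% of all genes, namely Hebp1, Cp and Fdx1 higher and Hp lower.

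Among uptake genes 9 of 12 were tested, and 1 passed the study thresholds in each direction. Steap3, the ferrireductase that works beside Tfrc in the endosome, stood at 35, 22 and 20 against 60, 66 and 45 normalised counts (log2 fold change 1.14 ± 0.35 SE, adjusted p = 0.230, limma). Slc39a8, a zinc and iron importer of the cell membrane, stood at 13, 33 and 15 against 2, 1 and 5, with treated values that stand for about 2, 1 and 3 reads. In approximate reads this was 62 against 6, a ratio per depth of 0.121 with a 95% exact interval from 0.0428 to 0.279 that covers counting error only. The fitted value of -2.57 ± 0.68 (SE, adjusted p = 0.163, limma) depends on the added count of 1. Slc39a8 passed the filter on low values only through the untreated libraries, where it was high. It was not tested with a filter of at least 20 or when an untreated library was left out. Nothing is therefore read from its place among the genes past the study thresholds. Steap1, the uptake gene of the highest mean, had a log2 fold change of -0.38 (adjusted p = 0.771), which was -0.0043 without amisulpride replicate 2 and -0.90 without amisulpride replicate 3.

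The iron regulatory proteins and the chaperones that load ferritin gave no call among 5 tested genes of 6. Aco1, which binds the elements printed above, stood at 78, 65 and 56 against 99, 71 and 156 normalised counts (log2 fold change 0.64 ± 0.33 SE, adjusted p = 0.516, limma), and Ireb2 at 132, 190 and 108 against 109, 112 and 191 (-0.07 ± 0.32). These were named after their values were seen, to stand beside Tfrc and ferritin. In both, amisulpride replicate 3 was the highest of its group, as it was for Tfrc. That library was also the highest of its group for Steap1, Cpox, Fech and Isca1, and the lowest for Fth1 and Hmox1. The pattern is therefore not particular to Aco1, Ireb2 and Tfrc. Pcbp1, which hands iron to ferritin, had a log2 fold change of -0.61 (adjusted p = 0.504).

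For export and systemic control, 4 of 9 genes were tested and 1 passed the study thresholds. Cp, the ferroxidase ceruloplasmin that works with ferroportin, stood at 30, 25 and 35 against 57, 83 and 98 normalised counts, groups that did not overlap. Its log2 fold change was 1.35 ± 0.33 (SE, adjusted p = 0.117, and 0.0403 with the replicate block, limma). Hps3 overlaps it on the other strand. Neo1, the export and control gene of the highest mean, had a log2 fold change of 0.30 (adjusted p = 0.733).

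Heme genes beside Hmox1 were mixed. Hebp1, a heme-binding protein, stood at 68, 79 and 53 against 136, 256 and 344 normalised counts, a log2 fold change of 1.78 ± 0.35 (SE, adjusted p = 0.0645, and 0.0061 with the block, limma). Hp, the hemoglobin-binding haptoglobin, stood at 645, 817 and 240 against 278, 487 and 64, lower in each replicate number while the groups overlapped (-1.28 ± 0.65 SE, adjusted p = 0.509, and 0.0193 with the block, limma). Slc48a1, a heme transporter, had a log2 fold change of 0.04. Heme synthesis, with 8 of 9 tested, held no gene past the study thresholds, and its gene of the highest mean, Cpox, was at 0.33.

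All 22 mitochondrial iron and iron-sulfur cluster genes were tested, and 2 passed the study thresholds. Fdx1, the electron donor ferredoxin, stood at 83, 95 and 113 against 151, 191 and 292 (log2 fold change 1.07 ± 0.30 SE, adjusted p = 0.184, and 0.0485 with the block, limma). Hscb, a co-chaperone of cluster transfer, stood at 19, 40 and 34 against 64, 106 and 43 (1.14 ± 0.41 SE, adjusted p = 0.312). Hspa9, the most abundant gene of that list, had a log2 fold change of -0.06. Of the 3 regulators of Hmox1 and ferritin transcription none passed the study thresholds, and Keap1, the one of the highest mean, was at -0.21.

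**Figure D4:**
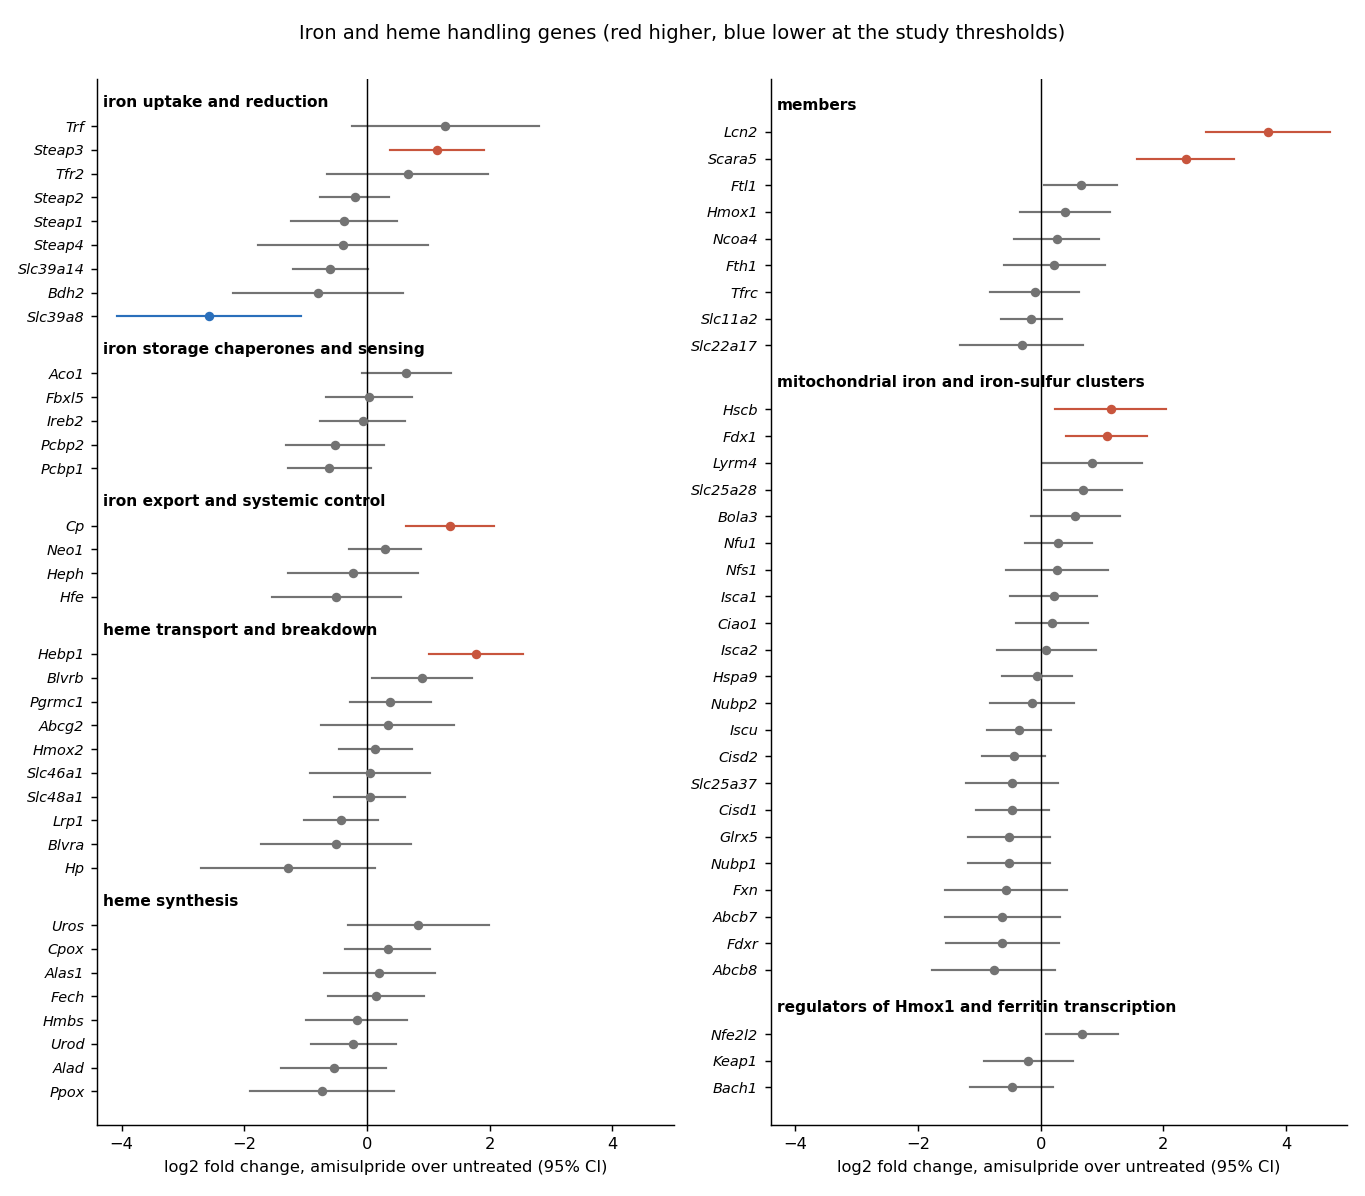
Log2 fold change, amisulpride over untreated, with its 95% confidence interval (limma, n = 3 and 3) for the 9 tested members and 61 tested genes of 7 iron and heme lists. Red and blue mark genes past the study thresholds (2 members, 5 higher and 1 lower listed genes), and most intervals of the other genes include 0.

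Among known regulators and partners of lipocalin 2 none was higher at the study thresholds. All 12 were tested, and 1 passed in the lower direction. Mmp9, the gelatinase that lipocalin 2 binds, stood at 2658, 992 and 2581 normalised counts in untreated and at 638, 230 and 1337 in amisulpride libraries. It was lower in each replicate number while the groups overlapped (log2 fold change -1.70 ± 0.56 SE, adjusted p = 0.265, and 0.0037 with the block, limma). Cebpb, whose product binds the kind of motif marked in the Lcn2 promoter, stood at 458, 386 and 308 against 300, 220 and 213, groups that did not overlap. Its log2 fold change was -0.65 ± 0.26 (SE, adjusted p = 0.382, limma). Cebpd, another C/EBP factor, stood at 637, 797 and 468 against 845, 806 and 895, again without overlap but with the higher values in the treated libraries (0.45 ± 0.26 SE, adjusted p = 0.564, limma). Both were named after their values were seen.

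Relatives of Lcn2 and Scara5 were compared as families. Of 12 other lipocalins only 2 passed the filter on low values, and Rbp4, the higher of these, stood at 12, 36 and 62 against 4, 17 and 25 (log2 fold change -1.23 ± 0.70 SE, adjusted p = 0.564, limma). All 4 other class A scavenger receptors were tested. Marco stood at 55, 24 and 25 against 133, 59 and 66, higher by 1.26, 1.26 and 1.37 on the log2 scale in the 3 replicate numbers (1.3 ± 0.42 SE, adjusted p = 0.256, and 0.0401 with the block, limma). Msr1, the one of the highest mean, was at -0.37 (adjusted p = 0.807). Scara3 stood at 49, 103 and 60 against 100, 161 and 116, higher in each replicate number while the groups overlapped (0.86 ± 0.33 SE, adjusted p = 0.357, limma). Colec12 was at 0.17 (adjusted p = 0.909, limma). Scara3 and Colec12 were named after their values were seen.

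Lipocalin 2 is a granule protein of neutrophils, and Marco and Msr1 are macrophage receptors, so markers of both cell types were summed in each library. Of 12 neutrophil markers Ngp, Mpo, S100a9 and Ly6g were at 0 in all 6 libraries. The sum ran from 1156 to 1647 normalised counts in untreated and from 966 to 1683 in treated libraries, nearly all of it Elane, and from 82 to 104 and from 73 to 100 without Elane. Only 3 of the 12 neutrophil markers, Camp, Elane and Cxcr2, passed the filter on low values and were tested. Of these none passed the study thresholds in the higher direction (2.69% of all genes) and 1, Camp, passed in the lower one (3.01%). The 12 macrophage markers summed to 2375 to 4110 in untreated and 2159 to 4133 in treated libraries, most of it Lyz2, with Cd163 at 0 in all. Single markers moved both ways, with Cd68 and Adgre1 higher and Ptprc, Fcer1g and Cd14 lower in each replicate number. Of the 10 macrophage markers tested, none was past the study thresholds in the higher direction, and Csf1r and Cd14 were past them in the lower. For Cd14 the adjusted p was 0.144, and 0.0120 with the replicate block (limma). Erythroid markers summed to at most 3 and endothelial ones to at most 17.

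The genes whose levels followed Lcn2 and Scara5 most closely were sought among protein-coding genes by Pearson's r over the 6 libraries, which share the 2 groups, so r mostly follows the group difference. For Lcn2 they were Ddost (0.995), Chid1 (0.993), Gm6594 (0.992), Mcur1 (0.990) and Hmgn1 (0.990). For Scara5 they were B3gntl1 (0.998), Stxbp5 (0.996), Hmgn1 (0.996), Gm6594 (0.994) and Ddost (0.993). B3gntl1 stood at only 6, 4 and 3 normalised counts without and 14, 15 and 14 with amisulpride. It passed the filter on low values only through the treated libraries, so nothing is read from its rank. Ddost, Gm6594 and Hmgn1 stood in both lists, and Lcn2 and Scara5 followed each other at 0.987. These are descriptions over 6 points, without a test.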

How the data were processed

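The authors mapped QuantSeq 3′ reads (Ion Proton) to mm10 with TopHat2 and, for unmapped reads, Bowtie2, counted them with GenomicRanges, normalised the counts and tested them with DESeq, all through metaseqr; the method of normalisation and versions are not given in the sources used here. The deposited values are a score, read here as counts scaled by library and rounded. Deposited fold changes, p-values and 12 further columns of values per library were not used. Without raw counts, limma 3.58.1 (R 4.3.3) was fitted, two-sided, on log2(normalised count + 1) over all 12614 genes with at least 10 in at least 3 libraries, with empirical Bayes moderation along the variance trend. The pseudocount understates changes of low genes. The worth of 1 read was estimated from gaps in low values, and the fit and this estimate were tested on simulated data. Without molecular identifiers, read floors and counting intervals leave out amplification error.

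Same-numbered libraries deviated together from their group means (correlations 0.229, 0.24 and 0.201), so a fit with the replicate number as a block was used as an alternative. Members and lists were chosen with earlier results of these data known. Named genes are the members, up to 15 listed genes past the study thresholds, the gene of highest mean in each list, ferritin copies and the 5 genes most like Lcn2 and Scara5. With a 3′ kit reads do not scale with transcript length, and levels were not compared between genes otherwise. IREs were searched in GENCODE M21 and promoters taken from RefSeq (GRCm38.p6). Alternatives were another pseudocount, filter, normalisation, array weights, the block and leaving out each library.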

Additional observations from a re-analysis of the deposited data

How the results depend on the processing

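The log2 fold changes of Lcn2 and Scara5 ran from 3.26 to 4.19 and from 2.07 to 2.72 under the 13 alternatives. Both were selected for higher treated values, and their groups did not overlap, so leaving out libraries could not turn the sign. The number of members with an adjusted p under 0.05, 2 as reported, ranged from 0 to 2 when single libraries were left out and was 2 under all other alternatives. That count holds only these selected genes and is a description. For the other iron pathway genes, 0 as reported, it was 1 without the filter, 1 with quantile normalisation, 2 with array weights, 4 with the replicate block, 4 with the block and ferritin copies added (chosen after seeing the data) and 6 at the study thresholds, and it ranged from 0 to 1 when single libraries were left out. Apart from these iron genes, Mmp9, Marco, Cd14 (adjusted p from 0.144 to 0.0120) and Chid1 (from 0.0664 to 0.0050), the replicate block changed no call among the named genes. The block raised the count over all genes from 36 to 263, and array weights to 195; leaving out a library gave 0 to 120. The cause was not tested.

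Directions turned for values near 0. Leaving out single libraries moved Tfrc between -0.42 and 0.20, Fth1 between -0.057 and 0.56, Slc48a1 between -0.15 and 0.20, Cpox between -0.0041 and 0.58, Hspa9 between -0.15 and 0.13, Keap1 between -0.44 and 0.16 and Msr1 between -0.78 and 0.14. Slc48a1 also turned to -0.023 with quantile normalisation and to -0.12 with array weights. The low read numbers limit Slc40a1, Slc39a8 and untreated Lcn2, among others. Without turning, single libraries moved Slc22a17 between -0.63 and -0.01, Ncoa4 between 0.056 and 0.43 and Hmox1 between 0.11 and 0.66.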

Other observations

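The ratio of Fth1 to Ftl1 normalised counts, which need not be the ratio of the transcripts, was 3.20, 4.81 and 3.07 in untreated and 3.30, 3.10 and 1.87 in amisulpride libraries. The groups overlapped, and the lowest ratio was that of amisulpride replicate 3. Fth1 took 0.173% to 0.330% of the summed value of a library without and 0.161% to 0.393% with amisulpride.

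Slc25a28, the mitochondrial iron importer mitoferrin-2, stood at 50, 43 and 35 normalised counts in untreated and at 70, 68 and 68 in amisulpride libraries, groups that did not overlap (log2 fold change 0.69 ± 0.29 SE, adjusted p = 0.415, limma). Its relative Slc25a37, of the same list, went the other way, at 546, 359 and 239 against 355, 272 and 184. It was lower in each replicate number while the groups overlapped (-0.46 ± 0.34 SE, adjusted p = 0.669, limma). Blvrb, which reduces biliverdin downstream of Hmox1, stood at 45, 51 and 30 against 68, 124 and 54 (0.89 ± 0.37 SE, adjusted p = 0.406, limma). Blvra, of the same list, stood at 41, 43 and 33 against 73, 24 and 11 (-0.50 ± 0.56 SE, adjusted p = 0.785, limma). Nfe2l2, the activator of Hmox1 and ferritin transcription, stood at 218, 195 and 168 against 267, 258 and 421 (0.67 ± 0.27 SE, adjusted p = 0.387, limma), and its heme-sensing repressor counterpart Bach1 at 54, 49 and 46 against 29, 39 and 39 (-0.48 ± 0.31 SE, adjusted p = 0.620, limma). These genes were chosen after their values were seen, and none passed the test over all genes.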
